A study of Mus musculus with 4 samples.

Results

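The genes described here encode the Slc25 mitochondrial carriers, chosen as every row of the read-count files whose symbol begins with Slc25a, with 1 such symbol set aside. They numbered 46 of the 23366 gene symbols listed. Carriers of this family are built from a repeated pair of membrane helices and sit mostly in the inner mitochondrial membrane, where they move nucleotides, phosphate, carboxylates, amino acids, cofactors and metal ions between cytosol and matrix. The ADP/ATP carriers and the phosphate carrier together serve ATP synthase, and several transport steps have tissue-specific isoforms.

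The RNA came from the mouse embryonic stem line R1, of strain 129X1 x 129S1, held on gelatin with LIF. In the knockdown group (2 libraries) the cells carried an shRNA against the long noncoding RNA Cyrano, and in the control group (2 libraries) a non-targeting shRNA, both delivered in the vector pSicoR-Ef1a-mCh-Puro. Cells of both groups were enriched with puromycin or by sorting, and which of these served a given library was not stated. Libraries were made from polyA RNA with a strand-specific dUTP method. The submitters call the libraries of a group biological replicates but do not say how the cultures were kept apart, so p-values measure only the spread between these libraries, which may be technical.

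Gene counts summed to 22321102 and 20761783 in the knockdown libraries and to 16854403 and 19138196 in the controls. Cyrano, listed as 1700020I14Rik, fell 5.57-fold, to 3.99 and 3.16 CPM in the knockdown libraries, against 24.8 and 15.1 CPM in the controls (log2 fold change -2.48 ± 0.30 SE, edgeR adjusted p = 0.0070). CPM are read counts scaled to library size with composition factors. The Cyrano call was lost without control replicate 1 (adjusted p = 0.12) and without control replicate 2 (adjusted p = 0.057). The 8 embryonic stem cell markers summed to 4127 to 4140.4 CPM in the knockdown libraries and 4256 to 4503 CPM in the controls, and the lowest single value was 129 CPM. The 7 endoderm markers, none of them at 0, summed to 162 to 200.1 CPM in the knockdown libraries and 99.8 to 119 CPM in the controls. Of 7 fibroblast markers, Col3a1, Postn, Dcn and Lum were at 0 in at least 1 library, and the list summed to 22.1 to 49.3 CPM in the knockdown libraries and 24.1 to 40.9 CPM in the controls. The highest value of a single fibroblast marker was 48.0 CPM, and only 2 of the 7 had enough reads to be tested. As a share of gene counts, the ribosomal transcript Rn45s took 12.3 and 11.03% in the knockdown libraries and 17.5 and 15.9% in the controls. The part of these differences in the carrier results was not tested. With the Rn45s row left out of the edgeR fit, the same 3 carriers as in the main fit had an unadjusted p under 0.05. That removes only the row itself, so it does not test other differences between libraries that go with the Rn45s share.

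A few carriers held most of the family's transcripts. As a share of gene counts, the 46 genes together took 0.300 and 0.313% in the knockdown libraries and 0.271 and 0.279% in the controls. To compare genes with each other, CPM were divided by transcript length in kilobases (kb). The main length was that of the gene's longest transcript, which in 13 members is not a protein-coding form, Slc25a3, Slc25a20 and Slc25a28 among them. Levels are therefore also given per kb of RefSeq mRNA, a scale added after the data were seen. On either scale Slc25a5, Slc25a3, Slc25a39 and Slc25a4 were the 4 highest members. Over the 4 libraries they held 68.7% to 69.2% of the family's summed level per kb of longest transcript, and 70.6% to 71.7% per kb of RefSeq mRNA. The 10 highest members held 85.8% to 86.8% on the first scale and 86.6% to 88.4% on the second.

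Slc25a5 encodes an ADP/ATP carrier, ANT2, typical of dividing cells. It had 538 and 559 CPM in the knockdown libraries and 569.7 and 554 CPM in the controls, and the groups overlapped. Per kb of longest transcript it averaged 448 ± 10.8 CPM (SD over the 4 libraries) and stood first in every library. Its share of the family's level on that scale was 33.2 and 34.3% in the knockdown libraries and 36.99 and 35.2% in the controls. Per kb of RefSeq mRNA its share was 26.1 and 27.01% in the knockdown libraries and 30.1 and 28.9% in the controls. This gene has near-identical processed copies elsewhere in the genome, and reads without a unique alignment were left uncounted, so its level is uncertain. As a share of all tallied reads, these made up 28.7 and 26.1% in the knockdown libraries and 32.8 and 30.2% in the controls.

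Slc25a3 encodes the phosphate carrier, which supplies the phosphate that ATP synthase uses. It had the most reads of any member, with 17246 and 16728 counts in the knockdown libraries and 9964 and 11185 in the controls. Per kb of longest transcript, a retained-intron form of 4039 bases, it had 191 and 192 CPM in the knockdown libraries and 150.1 and 147 CPM in the controls. Its range on that scale overlapped that of Slc25a39. Per kb of RefSeq mRNA, 1612 bases long, it had 479 and 482 CPM in the knockdown libraries and 376 and 367 CPM in the controls. On this second scale it lay above Slc25a5 in both knockdown libraries and below it in both controls. Its share of the family was then 28.8 and 28.9% in the knockdown libraries and 24.6 and 23.7% in the controls.

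**Figure D1:**
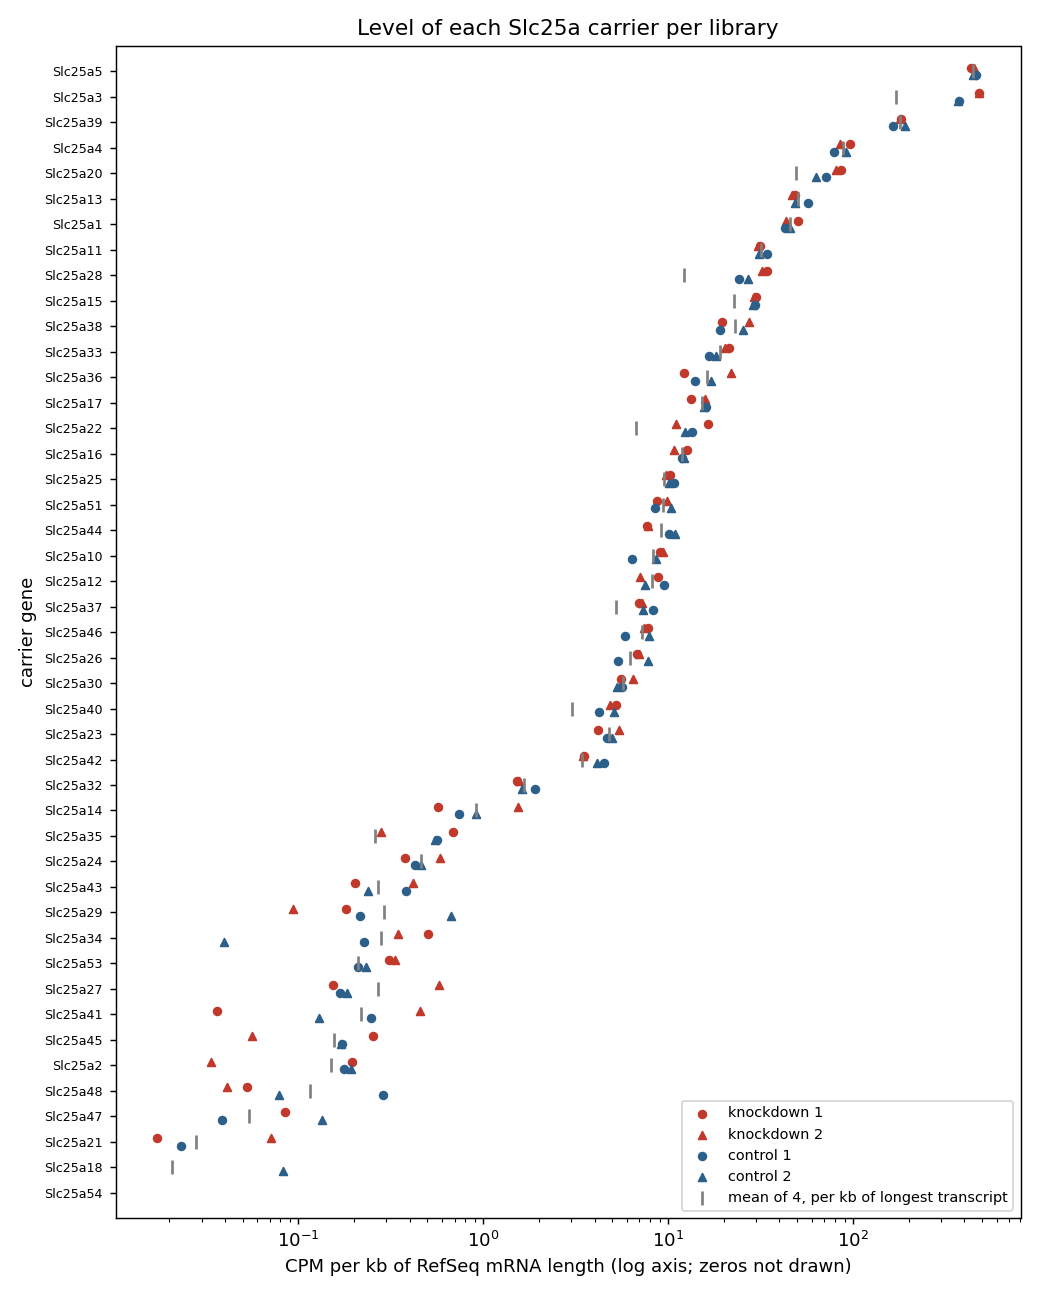
CPM per kb of RefSeq mRNA (log axis) of 45 of the 46 carriers in 2 knockdown libraries (red) and 2 control libraries (blue), with grey ticks for the mean of the 4 libraries per kb of longest transcript; values of 0 are not drawn. Slc25a5 and Slc25a3 stand together at the top, and the lowest members have at most 25 counts in any library.

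Slc25a39, needed for the entry of glutathione into mitochondria, had 305 and 301 CPM in the knockdown libraries and 277 and 322 CPM in the controls, with the knockdown values inside the range of the controls. Slc25a4 encodes ANT1, the ADP/ATP carrier of heart and skeletal muscle. It had 185 and 164 CPM in the knockdown libraries and 152 and 176 CPM in the controls, again with overlap. Reads of Slc25a4 relative to those of Slc25a5 came to 0.345 and 0.294 in the knockdown libraries and 0.267 and 0.317 in the controls (exact permutation p = 0.667, two-sided, where 2 libraries against 2 cannot go below 0.333). Slc25a5 thus exceeded its paralogue in all 4 libraries.

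The next members by level serve amino acids, fatty acids and citrate. Slc25a13, an aspartate-glutamate carrier of the malate-aspartate shuttle, had 152 and 147 CPM in the knockdown libraries and 178 and 152 CPM in the controls. Slc25a20, which exchanges acylcarnitine for carnitine, had 154 and 144 CPM in the knockdown libraries and 128 and 113 CPM in the controls. Slc25a1, which exports citrate, had 83.8 and 72.1 CPM in the knockdown libraries and 71.2 and 75.8 CPM in the controls. Of these, Slc25a20 was higher in both knockdown libraries and Slc25a1 overlapped. Slc25a13 was lower in both by a small margin, with 152.21 CPM in knockdown replicate 1 and 152.42 CPM in control replicate 2. Slc25a11, which exchanges oxoglutarate for malate, had 53.8 and 52.5 CPM in the knockdown libraries and 58.5 and 53.1 CPM in the controls. Slc25a15, the ornithine carrier, had 103 and 100.2 CPM in the knockdown libraries and 101 and 99.1 CPM in the controls. Slc25a38, a glycine carrier needed for heme synthesis, had 35.2 and 49.2 CPM in the knockdown libraries and 34.1 and 45.4 CPM in the controls. The groups overlapped in all 3, and Slc25a38 varied most within a group.

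Some neighbours in the order had overlapping ranges over the libraries. Per kb of longest transcript, the ranges over the 4 libraries overlapped between Slc25a39 and Slc25a3, between Slc25a13 and Slc25a20, between Slc25a20 and Slc25a1, and between Slc25a38 and Slc25a15. Slc25a5, Slc25a4 and Slc25a11 each stood apart from their neighbours in rank on that scale. Per kb of RefSeq mRNA, overlaps joined Slc25a5 to Slc25a3, Slc25a4 to Slc25a20, Slc25a13 to Slc25a1, Slc25a11 to Slc25a28 and Slc25a28 to Slc25a15, although Slc25a4 exceeded Slc25a20 within each of the 4 libraries.

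**Figure D2:**
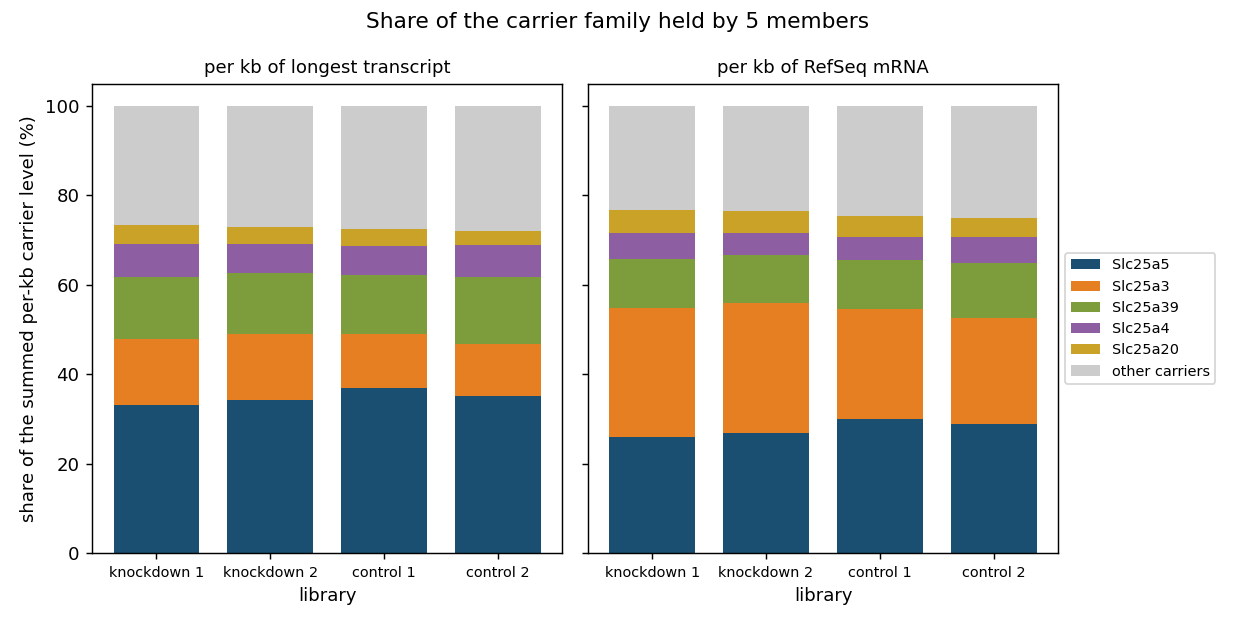
Share of the summed per-kb level of the 46 carriers (percent) held by 5 members and by the rest in each of 2 knockdown and 2 control libraries, with lengths from the longest transcript (left) and from the RefSeq mRNA (right). On the right, Slc25a3 holds 28.8 and 28.9% in the knockdown libraries and 24.6 and 23.7% in the controls.

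At the other end, 10 members had too few reads to be tested, at most 25 counts in a library. Slc25a54 was at 0 in all 4 libraries, where 3 counts would have been 0.134 and 0.139 CPM in the knockdown libraries and 0.183 and 0.159 CPM in the controls (counting error only). Slc25a18, a second glutamate carrier, had 0 and 0 counts in the knockdown libraries and 0 and 3 in the controls, whereas its paralogue Slc25a22 had 1037 and 667 counts in the knockdown libraries and 620 and 657 in the controls. Slc25a2, the paralogue of the ornithine carrier Slc25a15, had 6 and 1 counts in the knockdown libraries and 4 and 5 in the controls, and Slc25a15 had 2297 and 2158 counts in the knockdown libraries and 1658 and 1872 in the controls. In both pairs 1 paralogue supplied nearly all reads. The rest of the untested members were Slc25a21, the oxodicarboxylate carrier, Slc25a29, a basic amino acid carrier, Slc25a41, an ATP-Mg/phosphate carrier, and Slc25a43, Slc25a45, Slc25a47 and Slc25a48. Counts this low do not show that a transcript is absent.

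The comparison of knockdown with control asks which carriers differ once Cyrano is lowered. No carrier passed the test over all genes. Of 36 members tested with edgeR's quasi-likelihood test, 0 had an adjusted p under 0.05, beside 0.0833% of the 13199 genes tested. DESeq2 called 0 of the 30 members to which it gave an adjusted p (1.38% of all genes). With limma-voom 0 of 36 were called, beside 11 of the 13199 genes. At an unadjusted p under 0.05 in edgeR, 2 members were higher (5.56%, beside 6.18% of all genes) and 1 was lower (2.78%, beside 5.43%). By that measure, in either direction, limma-voom gave 5 members (13.9%, beside 11.7% of all genes) and DESeq2 gave 2 (5.56%, beside 9.90%). Both knockdown libraries lay above both controls in 7 members (19.4%, beside 22.3% of all genes) and below both in 5 (13.9%, beside 21.3%). The members' shares were near or under those of all genes. Their median log2 fold change was 0.07, with 21 of 36 above 0 (58.3%), and that of all genes tested was -0.002, with 49.8% above 0. The members' median was 0.0017 without knockdown replicate 1, 0.021 without knockdown replicate 2, -0.012 without control replicate 1 and 0.019 with a correction for length and GC content, so its sign turned without 1 library. Over all genes, log2 fold changes were lower for longer transcripts, with a median of 0.12 in the 2622 genes with the shortest transcripts and -0.14 in the 2624 with the longest. Where 1 library of a group is left out, the other group alone supplies the spread. In such fits, without knockdown replicate 2 no member had an unadjusted p under 0.05, and without knockdown replicate 1 only Slc25a36 did. Without control replicate 1 Slc25a28 no longer did, and without control replicate 2 Slc25a44 no longer did. Log2 fold changes kept their direction, and over the 4 such fits Slc25a3 ran from 0.35 to 0.39, Slc25a28 from 0.30 to 0.46 and Slc25a44 from -0.49 to -0.38. In bulk RNA, fewer cells with a transcript and less of it per cell cannot be told apart.

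**Figure D3:**
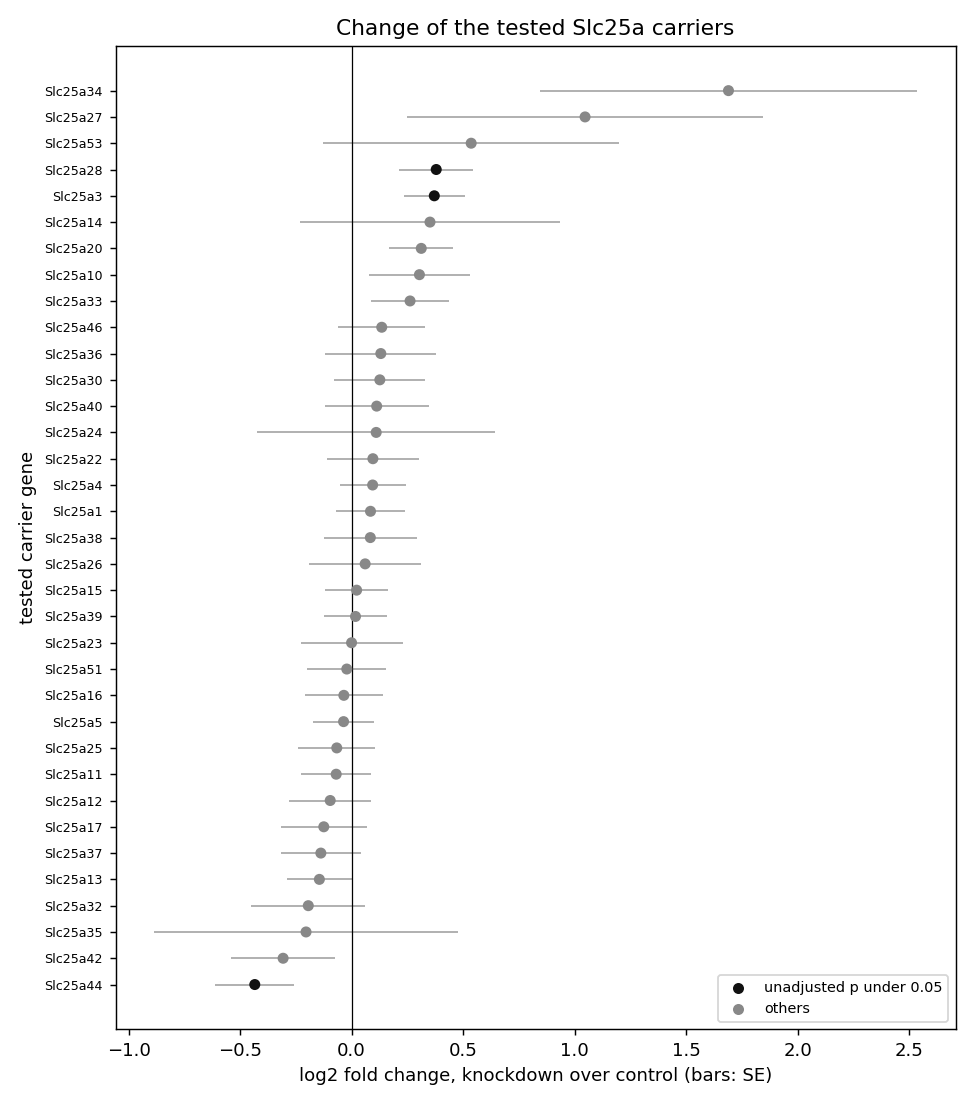
Log2 fold change (knockdown over control) of 35 of the 36 tested carriers, with bars of 1 SE from edgeR; black points have an unadjusted p under 0.05. The points run from -0.43 for Slc25a44 to 1.69 for Slc25a34, and the widest bars belong to members with few reads.

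Of 13 carriers of nucleotides, phosphate and coenzyme A, 11 were tested, with 5 log2 fold changes above 0 and 6 below. Slc25a3 had 773 and 777 CPM in the knockdown libraries, against 606 and 592 CPM in the controls. Values within a group lay close together, and the groups were apart. Its log2 fold change was 0.37 ± 0.14 (SE; unadjusted p = 0.019), and with an edgeR adjusted p of 0.33 it was not called. The log2 fold change of Slc25a5 was -0.04 ± 0.14 (-0.21 with a correction for length and GC content, edgeR adjusted p = 0.52), and that of Slc25a4 0.09 ± 0.15. Reads of Slc25a3 relative to those of Slc25a5, a ratio chosen after the values were seen and independent of library scaling, came to 1.44 and 1.39 in the knockdown libraries and 1.06 and 1.07 in the controls (exact permutation p = 0.333, two-sided). The summed CPM of the family was 2996 and 3016 in the knockdown libraries and 2779 and 2824 in the controls. Without Slc25a3 the sum was 2224 and 2239 in the knockdown libraries and 2173 and 2231 in the controls.

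The sequences around the start sites of Slc25a5 and Slc25a3 are shown because these genes lead the family, and that of Slc25a28 because it was the other member higher at an unadjusted p under 0.05. Each runs from 250 bases before to 50 after the start in RefSeq on GRCm38.p6, 5′ to 3′ on the gene's strand. Capitals mark matches on either strand to the GC box GGGCGG, the box CCAAT, the ETS core motif CCGGAAG or the YY1 core motif AAGATGG.
Slc25a5 (chrX:36795347-36795646, plus strand): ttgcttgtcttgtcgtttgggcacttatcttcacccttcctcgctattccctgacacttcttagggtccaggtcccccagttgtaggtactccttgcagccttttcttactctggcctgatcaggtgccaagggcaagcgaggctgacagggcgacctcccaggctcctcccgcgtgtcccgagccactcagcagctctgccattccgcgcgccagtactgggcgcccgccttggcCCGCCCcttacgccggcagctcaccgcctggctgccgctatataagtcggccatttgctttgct
Slc25a3 (chr10:91123918-91124217, minus strand): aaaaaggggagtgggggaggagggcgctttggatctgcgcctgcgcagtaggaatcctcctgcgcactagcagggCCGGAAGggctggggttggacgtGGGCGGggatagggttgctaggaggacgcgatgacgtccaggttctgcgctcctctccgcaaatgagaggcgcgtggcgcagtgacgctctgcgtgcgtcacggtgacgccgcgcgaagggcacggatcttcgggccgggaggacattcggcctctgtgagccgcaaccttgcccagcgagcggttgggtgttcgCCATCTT
Slc25a28 (chr19:43674832-43675131, minus strand): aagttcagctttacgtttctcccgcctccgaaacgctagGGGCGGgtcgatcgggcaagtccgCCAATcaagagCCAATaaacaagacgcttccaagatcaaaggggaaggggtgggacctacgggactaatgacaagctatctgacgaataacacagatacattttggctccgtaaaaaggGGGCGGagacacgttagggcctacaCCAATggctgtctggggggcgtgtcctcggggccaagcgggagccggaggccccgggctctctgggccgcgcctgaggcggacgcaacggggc
The window of Slc25a5 held 1 GC box, that of Slc25a3 held 1 GC box, 1 ETS core and 1 YY1 core, and that of Slc25a28 held 2 GC boxes and 3 CCAAT boxes. A window was found for 27 of the 36 tested members and for 9771 tested genes. The GC box occurred in 25 (92.6%, beside 66.4%) of these, the first percentage being of members and the second of all tested genes, and CCAAT in 14 (51.9%, beside 39.1%). The ETS core occurred in 6 (22.2%, beside 17.8%) and the YY1 core in 1 (3.70%, beside 7.30%). The letters TATAAA and GCGCATG, also searched on both strands, were in none of the 27 windows, beside 6.57% and 7.44% of tested genes. These counts describe letters and were not tested.

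Slc25a33 and Slc25a36 carry pyrimidine nucleotides. Slc25a33 had 40.1 and 38.2 CPM in the knockdown libraries and 31.2 and 34.1 CPM in the controls, with the groups apart and a log2 fold change of 0.26 ± 0.17. Slc25a36 had 63.4 and 114 CPM in the knockdown libraries and 72.8 and 89.4 CPM in the controls, and its knockdown libraries differed from each other more than the group means did. Slc25a42, the coenzyme A carrier, averaged 11.2 ± 0.0678 CPM in knockdown and 13.8 ± 0.870 CPM in control libraries (SD, n = 2 each), lower in both knockdown libraries, with a log2 fold change of -0.31 ± 0.23. The other tested members of this role were the peroxisomal carrier Slc25a17, the calcium-regulated ATP-Mg/phosphate carriers Slc25a23, Slc25a24 and Slc25a25, and Slc25a16. Their log2 fold changes ran from -0.12 to 0.11, and the groups overlapped in each.

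The mitoferrins import iron for heme and iron-sulfur clusters. Slc25a28 (mitoferrin 2) had 52.8 and 49.7 CPM in the knockdown libraries and 37.3 and 41.5 CPM in the controls. Slc25a37 (mitoferrin 1, the isoform of developing red cells) had 29.03 and 30.3 CPM in the knockdown libraries and 34.7 and 30.6 CPM in the controls. Both knockdown libraries were higher for the first gene and, by a small margin, lower for the second. The change in Slc25a28 was 0.38 ± 0.17 on the log2 scale with an unadjusted p of 0.040 (edgeR adjusted p = 0.40), and that in Slc25a37 was -0.14 ± 0.18. Slc25a37 came to -0.047 without control replicate 1, -0.23 without control replicate 2 and -0.029 with a correction for length and GC content. Reads of Slc25a28 relative to Slc25a37 came to 1.82 and 1.64 in the knockdown libraries and 1.08 and 1.35 in the controls (exact permutation p = 0.333, two-sided). With upper-quartile factors and in DESeq2, Slc25a28 no longer had an unadjusted p under 0.05. Of 16 alternative fits 1 called it, the replicate block combined with a correction for length and GC content (adjusted p = 0.047). That fit called 1 of 36 members (2.78%), beside 4.36% of all genes, and the block alone called 0, beside 7.24%.

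Of 11 carriers of amino acids and glutathione, 8 were tested, 5 above 0 and 3 below. Slc25a44, a carrier of branched-chain amino acids known from brown fat, had 27.6 and 27.9 CPM in the knockdown libraries, against 36.01 and 38.98 CPM in the controls. Both knockdown libraries were lower, and its log2 fold change was the most negative of the 36. It came to -0.43 ± 0.18 with an unadjusted p of 0.029 (edgeR adjusted p = 0.36). With library size as the only scaling it no longer had an unadjusted p under 0.05. Slc25a12, the paralogue of Slc25a13 in muscle and brain, had 56.2 and 44.5 CPM in the knockdown libraries and 60.04 and 47.7 CPM in the controls. Reads of Slc25a12 relative to Slc25a13 came to 0.369 and 0.304 in the knockdown libraries and 0.337 and 0.313 in the controls, with overlap. Log2 fold changes were -0.14 ± 0.14 for Slc25a13 and -0.10 ± 0.18 for Slc25a12. Slc25a13 came to -0.030 without control replicate 1 and -0.25 without control replicate 2. Slc25a22, a glutamate carrier, had 46.5 and 30.98 CPM in the knockdown libraries and 37.7 and 34.8 CPM in the controls, and Slc25a40, the paralogue of Slc25a39, averaged 14.1 ± 0.767 CPM in knockdown and 13.00 ± 1.69 CPM in control libraries.

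Of 5 carboxylate and acylcarnitine carriers, 4 were tested, 3 above 0 and 1 below. Slc25a20 had a log2 change of 0.31 ± 0.14, with an unadjusted p of 0.050 just outside the threshold (edgeR adjusted p = 0.43). Slc25a10, the dicarboxylate carrier, averaged 18.6 ± 0.512 CPM in knockdown and 15.1 ± 3.17 CPM in control libraries, with both knockdown libraries higher and a log2 change of 0.30 ± 0.23. The log2 changes of Slc25a1 and Slc25a11 were 0.08 ± 0.15 and -0.07 ± 0.16.

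**Figure D4:**
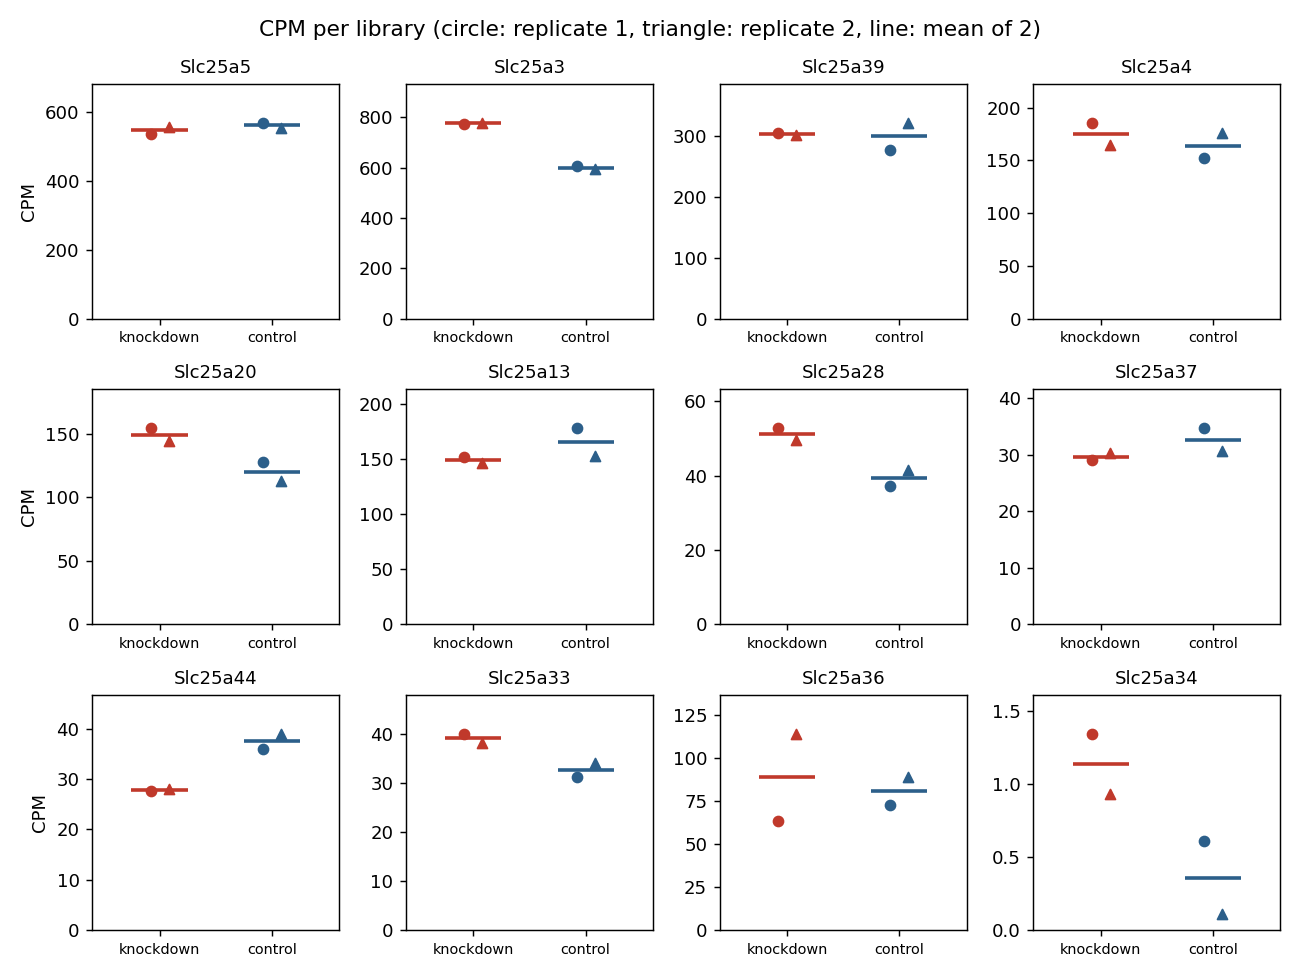
CPM of 12 carriers in 2 knockdown libraries (red) and 2 control libraries (blue), each panel starting at 0; circles are replicate 1, triangles replicate 2 and lines the mean of 2. Slc25a3, Slc25a20, Slc25a28, Slc25a33 and Slc25a34 lie higher in both knockdown libraries, Slc25a13, Slc25a37 and Slc25a44 lower, and the other 4 overlap. The margins are small for Slc25a13 and Slc25a37.

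Among carriers of cofactors and the methyl donor, Slc25a26 serves S-adenosylmethionine, Slc25a32 folate or FAD and Slc25a51 NAD. Their log2 fold changes were 0.06 ± 0.25, -0.19 ± 0.26 and -0.02 ± 0.18. Slc25a32 was lower in both knockdown libraries, averaging 9.10 ± 0.137 CPM in knockdown and 10.4 ± 1.18 CPM in control libraries, and the groups overlapped in the other 2. Slc25a14, Slc25a27 and Slc25a30, relatives of the uncoupling proteins, had log2 fold changes of 0.13 to 1.05, with overlap in each. Of the 8 other members 4 were tested. Slc25a46, an outer membrane protein linked to mitochondrial shape, had a log2 change of 0.14 ± 0.20, and Slc25a35 one of -0.20 ± 0.68. Slc25a34 had the largest positive log2 change of the 36, 1.69 ± 0.85 (edgeR adjusted p = 0.47), from 30 and 20 counts in the knockdown libraries and 10 and 2 in the controls. Slc25a53 had 22 and 23 counts in the knockdown libraries and 11 and 14 in the controls, and a log2 change of 0.54 ± 0.66. Both knockdown libraries were higher for these 2 genes, with errors that are large for so few reads.

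Cyrano carries a site that pairs with the microRNA miR-7, so the 3′ UTRs of the carriers were searched for letters that match it. The miRNA is printed 5′ to 3′ from RefSeq on GRCm38.p6, with its seed (bases 2 to 8) in capitals.
mmu-miR-7a-5p: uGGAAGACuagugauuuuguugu
The letters searched on the transcript strand were the seed complement GTCTTCC and the shifted match TCTTCCA, which overlap where both occur together. In the longest 3′ UTR of GENCODE M21, 11 of 36 tested members held a match (30.6%), beside 28.4% of the 12617 tested genes with a 3′ UTR of at least 50 bases. The combined match, not counted over all tested genes, occurred in 2 tested members, Slc25a23 and Slc25a42. They are shown here with Slc25a44, the member with the most negative change, which held 1 shifted match. Capitals mark the match.
Slc25a23: cccctctctctgcaatGTCTTCCAca
Slc25a42: atcactgatctggggtGTCTTCCAaa
Slc25a44: tcacggctgctccacatTCTTCCAtc
The 11 members with a match had a median log2 fold change of -0.03, with 4 above 0, and the 25 without had 0.09, with 17 above 0. Among the 11, Slc25a10 with 2 matches came to 0.30 and Slc25a25 with 3 matches to -0.07. Over all tested genes the medians were -0.04 with a match (44.6% above 0) and 0.01 without (51.6% above 0). With a correction for length and GC content, added after the data were seen, they were 0.0010 and 0.0014 over all tested genes, and -0.03 and 0.04 over the members. The difference between members was not tested. Slc25a23 had 13.98 and 18.3 CPM in the knockdown libraries and 15.6 and 16.7 CPM in the controls, with overlap, whereas Slc25a42 was lower in both knockdown libraries.

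Genes around the carriers were described from 3 lists. Of 13 genes that import carriers into the inner membrane, 13 were tested and 0 were called, with 8 log2 fold changes above 0 (61.5%, beside 49.8% of all genes), a median of 0.02 and 2 genes higher at an unadjusted p under 0.05 (15.4%, beside 6.18%). Tomm40, the outer membrane pore, had 411 and 414 CPM in the knockdown libraries and 296 and 303 CPM in the controls (log2 change 0.46 ± 0.14, edgeR adjusted p = 0.22). Tomm22, a receptor of the same complex, had 203 and 198 CPM in the knockdown libraries and 147 and 148 CPM in the controls (log2 change 0.44 ± 0.14, edgeR adjusted p = 0.24). In both the groups were apart. Among carrier relatives with other symbols, such as Ucp2, Mtch1 and Mtch2, 5 were in the files and 3 were tested, with a median of 0.09 and 0 at an unadjusted p under 0.05. The listed symbols Mcart1, Mcart2 and Mcart6 were not in the files. Of 16 other mitochondrial membrane transporters, 15 were tested and 0 were called, with a median of -0.02 and 2 higher at an unadjusted p under 0.05 (13.3%, beside 6.18% of all genes). In 2 of the 15 both knockdown libraries lay above both controls (13.3%, beside 22.3%) and in 5 below both (33.3%, beside 21.3%). Mpc2, a subunit of the pyruvate carrier, had 31.00 and 34.5 CPM in the knockdown libraries and 20.3 and 24.1 CPM in the controls (log2 change 0.56 ± 0.19, edgeR adjusted p = 0.28). Vdac2, an outer membrane channel, had 655 and 639.6 CPM in the knockdown libraries and 496 and 526 CPM in the controls (log2 change 0.34 ± 0.14, edgeR adjusted p = 0.36).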

How the data were processed

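The deposited files hold the authors' raw read counts per gene symbol, 1 file per library. Per the submitters' processing notes, the tools included TopHat, HTSeq, SAMtools and bedtools, with build mm9. No version, annotation or strand setting of the counting was stated, so for overlapping or antisense genes the counts may hold reads of both. Tallies naming no gene were left out of library sizes.

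The main test was edgeR 4.0.16 (R 4.3.3) with filterByExpr (minimum count 10), TMM factors and a robust quasi-likelihood fit on group alone, two-sided, with Benjamini-Hochberg adjustment over 13199 genes and a threshold of 0.05. DESeq2 1.42.0, limma 3.58.1, other scalings and filters, a replicate block, a length and GC correction and leaving out each library were alternatives. The test was also run on simulated counts, with a shared dispersion for all genes and larger changes than most carriers showed. That run does not show how well changes of the carriers' size are found. Lengths, GC content and 3′ UTRs came by symbol from GENCODE M21 (GRCm38), and promoters and the miRNA from RefSeq. Of 23366 symbols, 21732 matched directly and 1273 through a synonym.

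Members and lists were chosen with earlier results of these data known. Values per library are given for the 10 highest members per kb, those at an unadjusted p under 0.05, the largest change each way and 6 homologous pairs. The values of 1 member are not reported here, though it is in the counts and sums. Replicates differed beyond sampling noise (chi-square over degrees of freedom 20.5 in knockdown and 25.4 in control).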

Additional observations from a re-analysis of the deposited data

How the results depend on the processing

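Over 16 alternative fits, 0 members were called except in the replicate block with length and GC correction, which called 1, Slc25a28. The replicate block alone called 0 members (lowest adjusted p 0.0501, for Slc25a3) and 3 of the 31 tested genes of the related lists. With the correction the block called 1 of the 31. Over all genes the block called 955 (7.24%), and with the correction 575 (4.36%), against 11 without either. The libraries share only a number, and deviations of same-numbered libraries correlated at 0.244. Cyrano ranged from -2.79 to -2.08 over left-out libraries. The share of Slc25a5 in the family's per-kb level, 34.9%, was 28.0% per kb of RefSeq mRNA. With no length, Slc25a5 held 19.2% of the family's counts, and Slc25a3 held the largest share. Slc25a3 (0.33 to 0.43), Slc25a28 (0.30 to 0.46), Slc25a20 (0.22 to 0.40) and Slc25a44 (-0.49 to -0.36) kept their direction in these 16 fits. Slc25a34 ranged from 0.89 to 3.35 in the 15 fits that gave a value. Log2 changes near 0 reversed: Slc25a5 to 0.019 with library size only (but -0.21 with the length and GC correction, with or without the block), Slc25a12 to 0.0049 with the length and GC correction, and Slc25a39 to -0.0036 with upper-quartile factors, -0.048 with the correction and -0.048 with block and correction. Over left-out libraries the ranges that crossed 0 were -0.034 to 0.19 for Slc25a1, -0.0077 to 0.20 for Slc25a4, -0.14 to 0.00034 for Slc25a11, -0.28 to 0.079 for Slc25a12, -0.0034 to 0.046 for Slc25a15, -0.23 to 0.36 for Slc25a22, -0.35 to 0.49 for Slc25a36, -0.17 to 0.30 for Slc25a38 and -0.087 to 0.13 for Slc25a39. Of the genes at an unadjusted p under 0.05 in edgeR, 66.9% were higher in knockdown with library size only, against 53.2% with TMM factors. The causes were not tested. The 10 members with few reads were not tested.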
